A study of Mus musculus with 8 samples.

Results

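The genes described here are 34 mouse genes of meiotic entry, cohesion, synapsis and recombination with known roles there. Their symbols were looked up in the GENCODE M21 annotation, and 33 of the 34 were found among the 46078 Ensembl gene IDs counted in each of 8 RNA-sequencing libraries. The symbol Iho1 was not found there. Its gene is annotated as Ccdc36, with 46 to 129 counts in every library, and is not counted among the members, which were looked up by symbol. All cells have the C57BL/6 background. The tcESCs (genotype XY;tesco-cfp) are an embryonic stem cell (ESC) line with a Sertoli cell reporter, and tc;Sf1ESCs (XY;tesco-cfp;Sf1) are 1 clone of that line, picked after G418 selection, with a constitutive transgene of mouse Sf1 (Nr5a1), a transcription factor of gonadal somatic cells. Both lines were grown in serum-free medium with kinase inhibitors (2i) and LIF. SCLCs, also XY;tesco-cfp;Sf1, are CFP-positive cells sorted at day 12 from a culture in which tc;Sf1ESCs were directed towards testicular somatic cells. Tod-PGCLCs are primordial germ cell-like cells of genotype XY;Prdm1-gfp, sorted at day 6 from a testicular organoid, in which they had been cultured with cells derived from tc;Sf1ESCs. Each group has 2 libraries. Culture towards SCLCs began with CHIR99021 and TTNPB, an agonist of retinoic acid receptors, and went on with CHIR99021, BMP7 and FGF9. The study's own list of media gives TTNPB in place of FGF9 in that later medium, so how long TTNPB was present is not settled. Testicular organoids of the study are described as grown with CHIR99021 and without further supplements, and retinoic acid was added to some later co-cultures. The methods also list retinoic acid as an option for such aggregates. The medium of the organoids behind these libraries is not stated separately. ESCs of the Prdm1-gfp line were not analysed here, so in every comparison of tod-PGCLCs the line and the cell type cannot be told apart. In bulk RNA, more cells that express a gene and more RNA per cell cannot be told apart either.

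Meiosis turns diploid germ cells into haploid ones. Retinoic acid induces STRA8, the gatekeeper of meiotic entry, and MEIOC with YTHDC2 then holds the cell in the meiotic programme by controlling its RNAs. Meiosis-specific cohesin replaces its mitotic counterparts on the chromosome axis, SPO11 cuts the DNA at sites marked by PRDM9, DMC1 carries out strand invasion, and the synaptonemal complex zips homologous chromosomes together while some of the breaks mature into crossovers. In primordial germ cells and in ESCs many of these genes are held back by the polycomb complex PRC1.6, which reaches E-boxes and E2F sites through MGA-MAX and E2F6, and by DNA methylation.

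The libraries hold 25411033 to 30680191 counts on genes, at which 3 counts correspond to 0.0978 to 0.118 CPM (counts per 1000000 counts of the library), the floor used here for libraries without a count. Limits and intervals cover counting error only, since copies made by PCR cannot be told from separate molecules. Sampling noise alone did not account for the differences between replicates in any group, which were widest between the SCLC libraries, where the SD of the log2 difference over genes was 0.484 against 0.239 to 0.351 elsewhere. The labels do not say that replicates came from separate cultures, and p-values measure the spread between these libraries. The labelled cell types were checked against marker genes. Of 3 defining Sertoli cell genes in SCLCs, Fshr had 0 counts in both libraries, Amh 10 and 22 and Dhh 5 and 1. Of 8 Sertoli cell markers tested, 6 were called higher in SCLCs than in tc;Sf1ESCs and 1 lower (5 and 0 of 6 without Dhh and Cldn11, whose mean counts are not above the limit of 10 when 1 group is left out), while 9 of 9 markers of primitive and visceral endoderm (7 of 7 without Ttr and Apoa1, likewise) were called higher in SCLCs than in tc;Sf1ESCs, with a summed level of 1860 and 3273 CPM against 5.31 to 6.56 CPM in the ESC libraries. The summed level of 9 Sertoli cell markers was 14.5 to 18.7 CPM in the ESC libraries, 477 and 470 CPM in SCLCs and 119 and 145 CPM in tod-PGCLCs. Most of it in SCLCs came from Gata4, with 11011 and 12551 counts, which endoderm expresses too. In tod-PGCLCs the summed level of 9 primordial germ cell markers was 1098 and 1097 CPM. It was 523 to 574 CPM in the ESC libraries and 569 and 416 CPM in SCLCs. The sum of 8 pluripotency markers was 3326 and 3045 CPM in tod-PGCLCs, against 5129 to 5896 CPM in the ESC libraries. That of the endoderm markers was 29.9 and 39.9 CPM in tod-PGCLCs. Markers of postmeiotic germ cells (Tnp1, Tnp2, Prm1, Prm2, Acrv1, Pgk2) summed to no more than 0.489 CPM in any library. The part of other cell types in the values below was not tested. Some whole chromosomes moved as well. Between tc;Sf1ESCs and tcESCs the median log2 fold change was -0.32 over 778 genes of chromosome 6, which holds Stra8, and 0.48 over 870 genes of chromosome 8, which holds Syce2 and Tex15. In tod-PGCLCs it was 0.52, 0.47 and 0.53 over 1344 genes of chromosome 11 (Meioc, Hormad2, Psmc3ip and Tex14) against tcESCs, tc;Sf1ESCs and SCLCs, and -0.54 for chromosome 8 against each of the last 2. Chromosome 6 was at -0.29 in tod-PGCLCs against tcESCs. The X (622 genes, with Tex11, Taf7l and Ccnb3) was at 0.24 in SCLCs against tc;Sf1ESCs. In tod-PGCLCs the X was at 0.25 against tcESCs and 0.28 against tc;Sf1ESCs. The part of these shifts in the members' values was not tested.

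Promoters of 29 of the 33 genes were in a RefSeq table for GRCm38.p6 (Ythdc2, Spo11, Tex11 and Tex15 are not among them), and the 250 bases before the start site were searched on both strands. The letters CACGTG, the E-box bound by MAX heterodimers, were in 7 of the 29 genes (24.1%, against 6.86% of all 27025 genes in the table). They were found in Sycp1, Sycp3, Stag3, Syce2, Tex12, Hormad1 and Taf7l. GCGGGAA, an E2F site, was in 10 of the 29 (34.5% against 4.38%), among them Sycp3, Hormad1, Smc1b, Meioc, Tex14 and Prdm9. CNCCTCAG, the motif named for STRA8 and MEIOSIN, was in 5 of the 29 (17.2% against 7.39%). Where a gene has several start sites, a match before any of them was counted. The member promoters had a median of 13 CpG sites per window against 6 for all genes, so base composition differs too. The promoters of 4 E-box genes with different expression patterns are shown, up to the first base of any annotated exon, with CACGTG and GCGGGAA in capitals, on the strand of the gene and 5′ to 3′. Sycp3 and Hormad1 each hold 2 E-boxes and 1 E2F site, Sycp1 and Taf7l 1 E-box each.
Sycp3, chr10:88459337-88459568, plus strand: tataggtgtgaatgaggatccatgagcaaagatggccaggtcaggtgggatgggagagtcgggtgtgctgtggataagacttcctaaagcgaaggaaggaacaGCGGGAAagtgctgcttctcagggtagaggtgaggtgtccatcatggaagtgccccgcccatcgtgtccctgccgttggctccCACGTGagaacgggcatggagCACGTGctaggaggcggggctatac
Taf7l, chrX:134476491-134476740, minus strand: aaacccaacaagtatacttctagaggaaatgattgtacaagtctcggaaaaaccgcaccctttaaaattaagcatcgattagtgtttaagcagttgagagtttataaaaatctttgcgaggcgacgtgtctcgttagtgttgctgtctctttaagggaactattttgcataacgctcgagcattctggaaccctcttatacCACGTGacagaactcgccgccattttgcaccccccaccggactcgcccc
Sycp1, chr3:102936101-102936350, minus strand: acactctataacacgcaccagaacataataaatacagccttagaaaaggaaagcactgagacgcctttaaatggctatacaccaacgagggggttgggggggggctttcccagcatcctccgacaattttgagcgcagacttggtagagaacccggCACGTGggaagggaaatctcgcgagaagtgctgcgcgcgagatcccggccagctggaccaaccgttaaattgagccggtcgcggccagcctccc
Hormad1, chr3:95559427-95559676, plus strand: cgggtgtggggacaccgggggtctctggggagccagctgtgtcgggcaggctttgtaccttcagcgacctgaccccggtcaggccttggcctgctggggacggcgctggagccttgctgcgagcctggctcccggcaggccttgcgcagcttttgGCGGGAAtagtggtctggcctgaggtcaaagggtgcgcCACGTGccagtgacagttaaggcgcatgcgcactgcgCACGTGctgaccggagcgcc

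Summed over the 33 genes, meiosis transcripts were highest in tod-PGCLCs, at 785 and 743 CPM, and on average lowest in tc;Sf1ESCs, at 433 and 429 CPM. The tcESC libraries had 586 and 577 CPM, and the SCLC libraries 561 and 390 CPM. The tod-PGCLC libraries therefore lay above all others, while the SCLC libraries lay on either side of tc;Sf1ESCs. As TPM (counts per kilobase of merged exon, scaled to the same total in every library), both SCLC sums (739 and 476) were above those of tc;Sf1ESCs (451 and 444). Of the 28 members tested (mean count above 10 over the 8 libraries), 18 had their highest mean CPM in tod-PGCLCs, against 28.9% of the 16707 genes tested, and 17 had their lowest in tc;Sf1ESCs, against 23.6%. The 18 include Spo11, which passed that limit only through tod-PGCLCs, and the 17 include Tex12, which passed it only through SCLCs. Neither gene lends support to these counts. Levels of different genes were compared as TPM. On that scale Hormad1 led in tcESCs (98.3 ± 3.36 TPM; SD, n = 2), Syce2 in tc;Sf1ESCs (97.1 ± 1.80 TPM) and Stra8 in both differentiated groups (88.9 ± 58.5 TPM in SCLCs and 153 ± 12.7 TPM in tod-PGCLCs). In SCLCs the libraries of Stra8 overlapped with those of Syce1, the next in order (77.5 ± 4.01 TPM). In tod-PGCLCs Stra8 stood clear of Mnd1 (130 ± 5.53 TPM), and Mnd1 of Rec8 (91.0 ± 20.6 TPM).

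**Figure D1:**
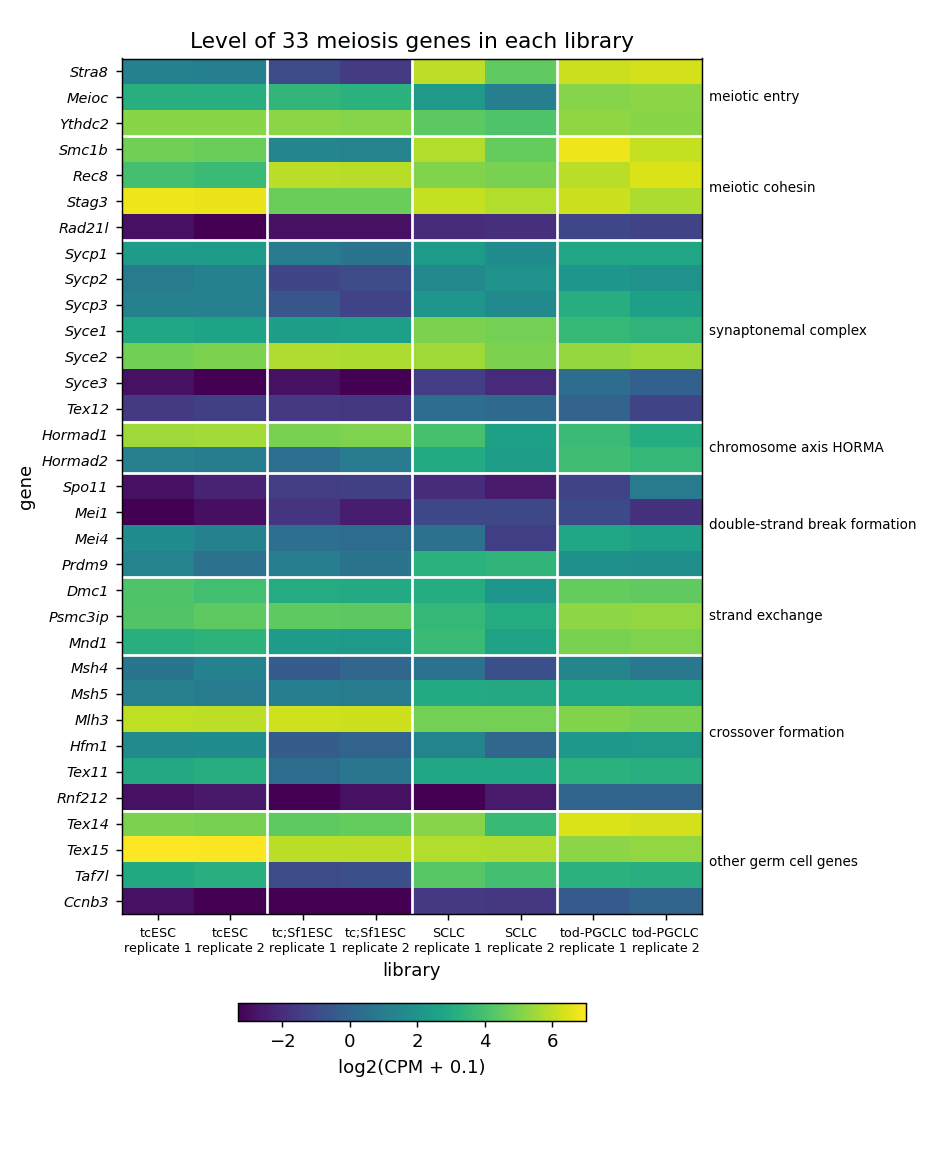
Level of each of the 33 meiosis genes (rows, grouped by role) in the 8 libraries (columns, 2 per group), as log2 of CPM plus 0.1, with dark colours for low and yellow for high levels. The Stra8 row is dark in tc;Sf1ESCs, intermediate in tcESCs and bright in SCLCs and tod-PGCLCs, and Rad21l, Syce3, Mei1, Rnf212 and Ccnb3 are low throughout.

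A gene was called different with a fold change above 2 and an adjusted p under 0.05 in edgeR's quasi-likelihood test, adjusted by the Benjamini-Hochberg method over all 16707 genes, and all fold changes, standard errors (SE) and adjusted p-values below come from that fit unless another is named. The first comparison asks what differs between the Sf1 clone and its parent line, where the transgene and other traits of the clone cannot be told apart. Of the 28 members 1 was called higher in tc;Sf1ESCs than in tcESCs (6.13% of all genes were) and 10 lower (5.85% of all genes), with a median log2 fold change of -0.76 against 0 over all genes. The second asks what changed from tc;Sf1ESCs to SCLCs. There 15 members rose (24.2% of all genes) and 4 fell (18.0%), with a median of 1.05 against 0.02. In tod-PGCLCs 11 members were higher than in tcESCs (18.1% of all genes) and 3 lower (11.2%), with a median of 0.86 against 0.03. Against tc;Sf1ESCs, 17 members were higher in tod-PGCLCs (19.4%) and 2 lower (13.3%), with a median of 1.72 against 0.01. Between both differentiated groups, 10 members were higher in tod-PGCLCs than in SCLCs (18.5%) and 4 lower (19.5%), with a median of 0.78 against 0.01. With library totals in place of TMM factors that last split was 11 higher and 2 lower, and without SCLC replicate 1 it was 14 and 2. Without SCLC replicate 2 the members that fell in SCLCs were 2. Comparisons that share a group are not independent, since the tc;Sf1ESC libraries enter 3 of them and the tod-PGCLC libraries 3. The 5 members below the count limit are described at the end of the account of their roles. Spo11 passed the limit only through 1 tod-PGCLC library and Tex12 only through the SCLC libraries (its mean count was not above 10 without them), so the calls of both lend no support to these counts. Without them, 10 of 26 members were called higher in tod-PGCLCs than in tcESCs, 14 rose in SCLCs, and 9 were higher and 3 lower in tod-PGCLCs than in SCLCs, while the other counts did not change.

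**Figure D2:**
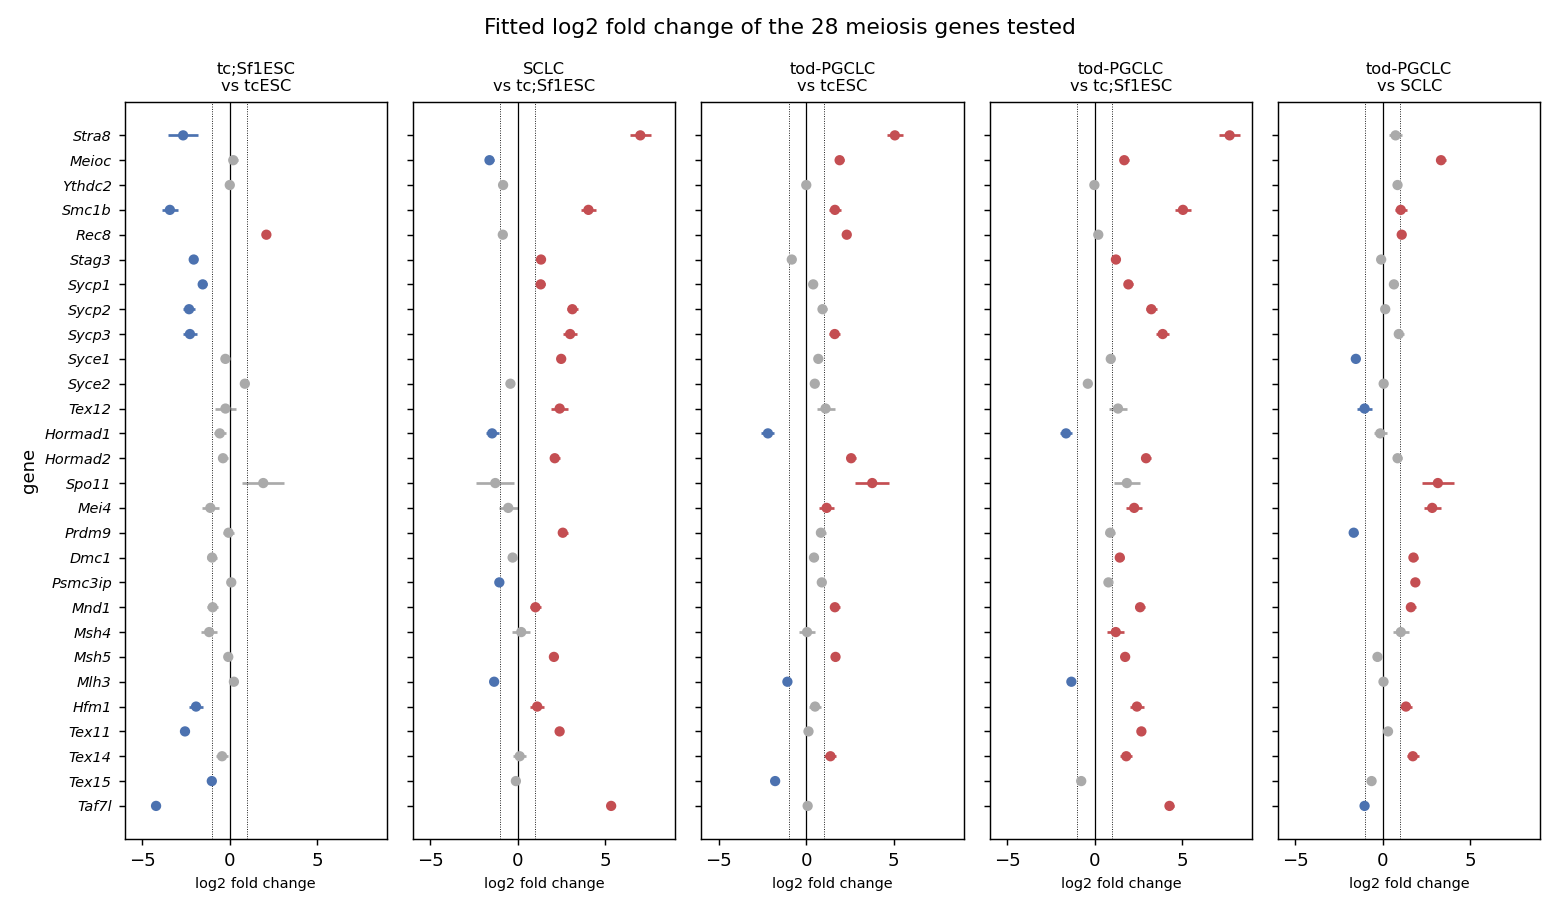
Fitted log2 fold change (horizontal axis, bars show 1 standard error) of the 28 meiosis genes tested, in the 5 comparisons, with dotted lines at a 2-fold change. Red points were called higher and blue points lower in the first group named, and grey points were not called. Most called points lie below 0 for tc;Sf1ESCs against tcESCs (10 of 11) and above 0 in the 4 other comparisons.

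Among the meiotic entry genes, Stra8 changed most. It had 56 and 65 counts in tcESCs, 11 and 7 in tc;Sf1ESCs, 1642 and 654 in SCLCs and 1966 and 2143 in tod-PGCLCs. Both differentiated groups stood far above both ESC lines, and the SCLC libraries differed from each other by 2.76-fold in CPM. Stra8 rose in SCLCs to 42.2 ± 27.9 CPM (SD, n = 2), from 0.339 ± 0.121 CPM in tc;Sf1ESCs before differentiation (log2 fold change 6.99, SE 0.62, adjusted p = 9.79e-06), and the value was 6.10 without SCLC replicate 1. In tod-PGCLCs, at 76.0 ± 6.57 CPM, it was higher than in tcESCs (log2 fold change 5.06, SE 0.47, adjusted p = 2.99e-05) and than in tc;Sf1ESCs (7.71, SE 0.61, adjusted p = 9.93e-06). The level in tod-PGCLCs was not called different from that in SCLCs (log2 fold change 0.72, SE 0.36, adjusted p = 0.10). Stra8 was also lower in tc;Sf1ESCs than in tcESCs (log2 fold change -2.65, SE 0.84, adjusted p = 0.0409), a call on few counts that was lost when either tcESC, either tc;Sf1ESC or either tod-PGCLC library was left out (adjusted p up to 0.159, and up to 0.357 over all alternatives). Rarb, a gene that responds to retinoic acid in many cell types and was picked here with its values known, had 238 and 183 counts in SCLCs, 28 and 56 in tod-PGCLCs and 2 to 5 in the ESC libraries. It was thus above the ESC lines in both differentiated groups, as Stra8 was, but lower in tod-PGCLCs than in SCLCs (ratio of pooled CPM 0.205, 95% exact interval 0.160 to 0.260). The part of retinoid signalling in the Stra8 values was not tested.

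Meioc, which encodes the partner of YTHDC2, behaved differently from Stra8. It had 230 and 278 counts in tcESCs, 289 and 267 in tc;Sf1ESCs, 120 and 60 in SCLCs and 964 and 969 in tod-PGCLCs, so that SCLCs were lowest and tod-PGCLCs highest, with no overlap. Meioc fell in SCLCs (log2 fold change -1.62, SE 0.28, adjusted p = 0.000668, and -2.27 without SCLC replicate 1). It was higher in tod-PGCLCs than in SCLCs (3.32, SE 0.28, adjusted p = 9.12e-06, and 3.97 without SCLC replicate 1) and than in tcESCs (1.91, SE 0.25, adjusted p = 0.000213). Ythdc2, the RNA helicase, had 911 to 1091 counts in the ESC and tod-PGCLC libraries and 553 and 514 in SCLCs, a difference under 2-fold that was called in none of the 5 comparisons. The gene of the partner of STRA8, Gm4969 (Meiosin), which is no member, had 2 to 12 counts in all libraries.

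**Figure D3:**
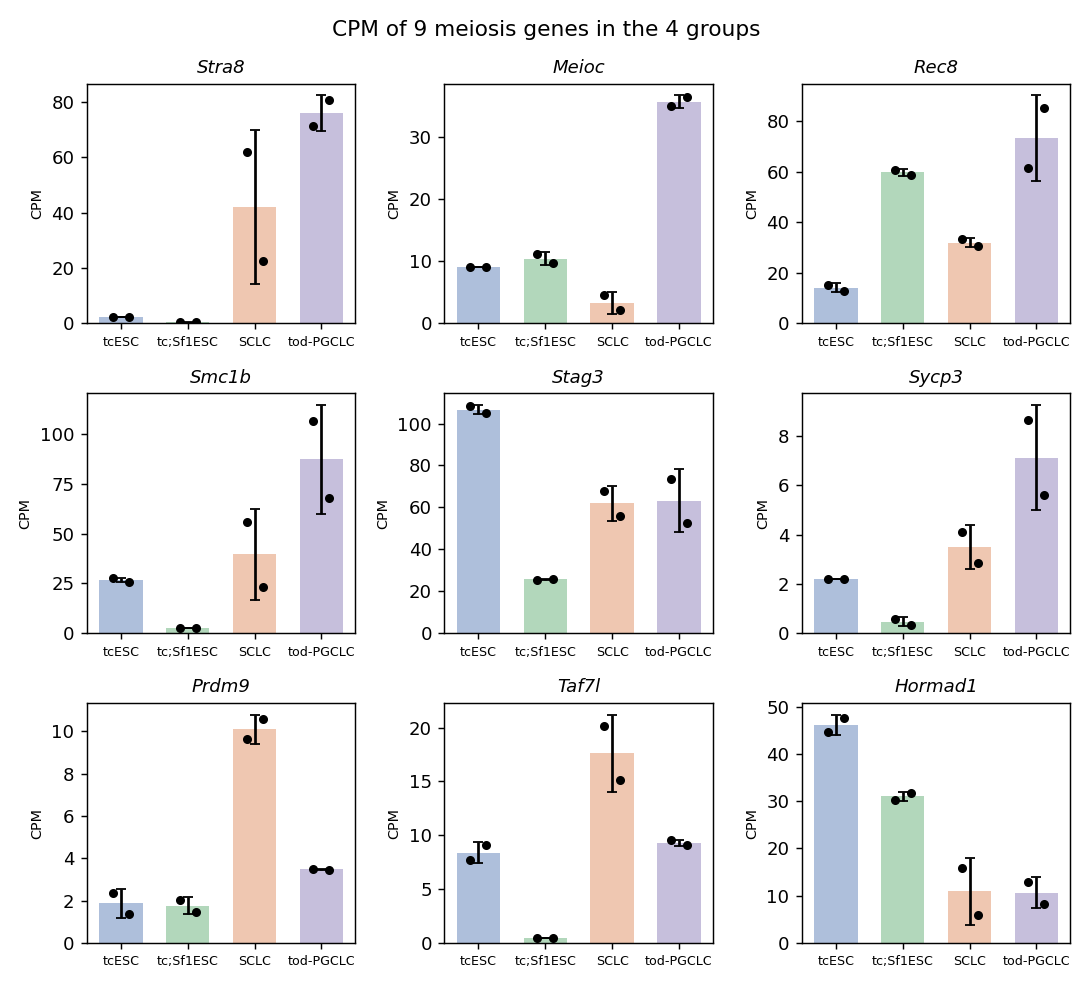
CPM of 9 meiosis genes in tcESCs, tc;Sf1ESCs, SCLCs and tod-PGCLCs. Bars are means of 2 libraries, error bars 1 SD and points single libraries. Stra8 stands at 42.2 CPM in SCLCs and 76.0 CPM in tod-PGCLCs and near 0 in both ESC lines, Meioc is highest in tod-PGCLCs at 35.7 CPM, and Prdm9 in SCLCs at 10.1 CPM.

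The meiotic cohesin subunits did not move as one. Rec8, the kleisin that holds sister chromatids together until the second division, was the single member called higher in tc;Sf1ESCs than in tcESCs. It had 388 and 395 counts in tcESCs, 1576 and 1627 in tc;Sf1ESCs, 880 and 890 in SCLCs and 1694 and 2270 in tod-PGCLCs. Rec8 was thus lowest in tcESCs, reached 59.8 ± 1.41 CPM in tc;Sf1ESCs from 14.1 ± 1.69 CPM (log2 fold change 2.10, SE 0.16, adjusted p = 5.09e-05) and was lower again in SCLCs without passing the fold limit (-0.86, SE 0.15, adjusted p = 0.000720). In tod-PGCLCs it was higher than in tcESCs (2.31, SE 0.16, adjusted p = 5.82e-06) and not called different from tc;Sf1ESCs (0.21, SE 0.15, adjusted p = 0.237). Against SCLCs it was called higher (1.07, SE 0.15, adjusted p = 0.000216), with 0.82 and no call without tod-PGCLC replicate 2.

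Smc1b, the meiotic SMC1 subunit, went the opposite way to Rec8 between the ESC lines. It had 699 and 794 counts in tcESCs, 67 and 66 in tc;Sf1ESCs, 1476 and 678 in SCLCs and 2939 and 1807 in tod-PGCLCs. The tc;Sf1ESC libraries were the lowest by about an order of magnitude (log2 fold change -3.41 against tcESCs, SE 0.45, adjusted p = 0.000714). Smc1b rose again in SCLCs (4.03, SE 0.45, adjusted p = 4.22e-05, and 3.29 without SCLC replicate 1) and was higher in tod-PGCLCs than in tc;Sf1ESCs (5.05, SE 0.45, adjusted p = 1.92e-05). The call between tod-PGCLCs and SCLCs (log2 fold change 1.02) was lost when either tcESC library, SCLC replicate 2 (0.51) or tod-PGCLC replicate 1 (0.66) was left out, with DESeq2 and with only the 4 libraries compared (adjusted p up to 0.618 over all alternatives), and the value was 1.76 without SCLC replicate 1. Stag3, the meiotic STAG subunit and an E-box gene, was highest in tcESCs with 2751 and 3223 counts, against 657 and 714 in tc;Sf1ESCs, 1801 and 1630 in SCLCs and 2031 and 1399 in tod-PGCLCs. It was called lower in tc;Sf1ESCs than in tcESCs and higher in SCLCs and tod-PGCLCs than in tc;Sf1ESCs, and the last of these calls was lost without tod-PGCLC replicate 1 (log2 fold change 0.96). Of 15 genes of mitotic cohesin and its partners, Esco2 (-1.33) and Cdca5 (-1.02) fell in SCLCs and 0 were called by edgeR or by DESeq2 in the 4 other comparisons, where 4 to 11 had an unadjusted p under 0.05.

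Of the synaptonemal complex genes, Sycp3, which builds the lateral element, had 56 and 67 counts in tcESCs, 15 and 9 in tc;Sf1ESCs, 109 and 83 in SCLCs and 238 and 149 in tod-PGCLCs. The 4 groups did not overlap and followed the same order as Stra8. Sycp3 was lower in tc;Sf1ESCs than in tcESCs (log2 fold change -2.26, SE 0.40, adjusted p = 0.00277) and higher in SCLCs than in tc;Sf1ESCs (2.99, SE 0.38, adjusted p = 0.000103). In tod-PGCLCs, at 7.13 ± 2.14 CPM, it was higher than in tc;Sf1ESCs (3.89, SE 0.37, adjusted p = 2.83e-05) and tcESCs (1.63, SE 0.30, adjusted p = 0.00145) and did not pass the fold limit against SCLCs (0.90, SE 0.29, adjusted p = 0.0199). Exons of Sycp3 overlap those of Chpt1 on the opposite strand. Whether the counting used the strand is not given in the sources used here.

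Sycp2, its partner in the lateral element, had 44 and 68 counts in tcESCs, 9 and 12 in tc;Sf1ESCs, 75 and 110 in SCLCs and 117 and 98 in tod-PGCLCs. It fell in tc;Sf1ESCs (log2 fold change -2.31, SE 0.32, adjusted p = 0.000971), was higher in SCLCs (3.11, SE 0.31, adjusted p = 2.21e-05) and tod-PGCLCs (3.24, SE 0.31, adjusted p = 2.92e-05) than in tc;Sf1ESCs, and overlapped between the last 2 groups. Sycp1, the transverse filament that bridges homologues, had 125 and 148 counts in tcESCs, 48 and 41 in tc;Sf1ESCs, 129 and 91 in SCLCs and 188 and 177 in tod-PGCLCs. It too was lowest in tc;Sf1ESCs (-1.53 against tcESCs, SE 0.25, adjusted p = 0.00210). Sycp1 was higher in SCLCs (1.30, SE 0.26, adjusted p = 0.00149, and 0.97 with no call without SCLC replicate 1) and in tod-PGCLCs (1.93, SE 0.25, adjusted p = 0.000171) than in tc;Sf1ESCs. Against tcESCs (0.40, SE 0.23, adjusted p = 0.158) and SCLCs (0.63, SE 0.23, adjusted p = 0.0362) Sycp1 was not called in tod-PGCLCs.

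The tested central element genes did not have their highest levels in tod-PGCLCs. Syce1 had 820 and 831 counts in SCLCs, against 142 to 190 in the ESC libraries and 326 and 277 in tod-PGCLCs. Syce1 was called higher in SCLCs than in tc;Sf1ESCs and lower in tod-PGCLCs than in SCLCs (log2 fold change -1.55, SE 0.13, adjusted p = 8.16e-06). Tex12 had 33 and 31 counts in SCLCs, 24 and 9 in tod-PGCLCs and 6 to 9 in the ESC libraries. It was tested only through the SCLC libraries, where it is high, so its values are a description. The fit gave a higher level in SCLCs than in tc;Sf1ESCs and a lower one in tod-PGCLCs than in SCLCs (log2 fold change -1.05, SE 0.42, adjusted p = 0.0489), and the second call was lost with library totals, the filterByExpr filter of edgeR, DESeq2 or only the 4 libraries compared, and when any library other than tod-PGCLC replicate 1 was left out. Without tod-PGCLC replicate 1 the value was -1.88. Syce2 ranged from 711 to 1471 counts, was highest in tc;Sf1ESCs and was called in none of the 5 comparisons.

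The HORMA domain genes of the chromosome axis moved in opposite directions. Hormad1 had 1134 and 1463 counts in tcESCs, 787 and 878 in tc;Sf1ESCs, 421 and 172 in SCLCs and 357 and 220 in tod-PGCLCs, so that both ESC lines stood above both differentiated groups. It fell in SCLCs (log2 fold change -1.47, SE 0.37, adjusted p = 0.00569, with -2.33 without SCLC replicate 1 and -0.91 and no call without SCLC replicate 2). It was lower in tod-PGCLCs than in tcESCs (-2.19, SE 0.37, adjusted p = 0.000884) and tc;Sf1ESCs (-1.63, SE 0.37, adjusted p = 0.00398). Hormad2 had 55 and 61 counts in tcESCs, 33 and 52 in tc;Sf1ESCs, 209 and 156 in SCLCs and 392 and 308 in tod-PGCLCs, and was higher in tod-PGCLCs than in tcESCs (2.56, SE 0.26, adjusted p = 5.00e-05). It was also called higher in SCLCs and tod-PGCLCs than in tc;Sf1ESCs.

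Genes of double-strand break formation differed in the group where they peaked. Spo11, the nuclease that makes the breaks, had 1 and 3 counts in tcESCs, 7 and 8 in tc;Sf1ESCs, 4 and 2 in SCLCs and 9 and 49 in tod-PGCLCs. All but 1 library stayed below 10 counts. Since Spo11 was tested only through that library, its values are a description. In tod-PGCLCs the fit gave a higher level than in tcESCs (log2 fold change 3.77, SE 0.96, adjusted p = 0.00830) and in SCLCs (3.14, SE 0.90, adjusted p = 0.0122). On pooled counts these ratios of CPM were 15.0 (95% exact interval 5.57 to 57.0, from 58 and 4 counts) and 9.93 (4.30 to 28.2). The call against tcESCs was lost without tcESC replicate 1 (3.29), and its value was 4.51 without tcESC replicate 2 and 4.54 without tod-PGCLC replicate 1. Against SCLCs the value was 3.75 without SCLC replicate 1 and 3.91 without tod-PGCLC replicate 1. Without tod-PGCLC replicate 2 Spo11 was under the count limit and not tested. Between tc;Sf1ESCs and tcESCs (log2 fold change 1.93, SE 1.19, adjusted p = 0.250), SCLCs and tc;Sf1ESCs (-1.29, SE 1.10, adjusted p = 0.314) and tod-PGCLCs and tc;Sf1ESCs (1.84, SE 0.76, adjusted p = 0.0590) Spo11 was not called.

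Prdm9, the histone methyltransferase that marks where breaks are made, was highest in SCLCs. It had 60 and 42 counts in tcESCs, 53 and 41 in tc;Sf1ESCs, 255 and 308 in SCLCs and 96 and 92 in tod-PGCLCs. Prdm9 rose from 1.76 ± 0.398 CPM in tc;Sf1ESCs to 10.1 ± 0.682 CPM in SCLCs (log2 fold change 2.57, SE 0.27, adjusted p = 3.07e-05). It was lower in tod-PGCLCs than in SCLCs (-1.67, SE 0.25, adjusted p = 0.000351) and did not pass the fold limit against tcESCs (0.84, SE 0.28, adjusted p = 0.0272) or tc;Sf1ESCs (0.89, SE 0.28, adjusted p = 0.0205). The ESC lines overlapped (-0.05, SE 0.30, adjusted p = 0.913). Mei4, which encodes an axis protein that promotes breaks, was highest in tod-PGCLCs with 187 and 149 counts, against 36 and 8 in SCLCs and 32 to 77 in the ESC libraries. It was higher in tod-PGCLCs than in SCLCs (2.81, SE 0.49, adjusted p = 0.000869), with 4.33 without SCLC replicate 1 and 2.05 without SCLC replicate 2. Its call against tcESCs (1.16, adjusted p = 0.0422) was lost when any tcESC, tc;Sf1ESC or tod-PGCLC library was left out (adjusted p up to 0.251, and up to 0.577 over all alternatives).

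The strand exchange genes were already transcribed in ESCs and were highest in tod-PGCLCs. Dmc1, the meiotic recombinase, had 450 and 442 counts in tcESCs, 211 and 215 in tc;Sf1ESCs, 223 and 121 in SCLCs and 655 and 586 in tod-PGCLCs. It was higher in tod-PGCLCs than in SCLCs (log2 fold change 1.74, SE 0.27, adjusted p = 0.000415) and tc;Sf1ESCs (1.44, SE 0.27, adjusted p = 0.00132) and was not called against tcESCs (0.44, SE 0.25, adjusted p = 0.161). Its level in tc;Sf1ESCs against tcESCs lay at the fold limit without passing it (-0.997, SE 0.27, adjusted p = 0.0205), and SCLCs and tc;Sf1ESCs overlapped (-0.30, SE 0.28, adjusted p = 0.353). Psmc3ip, which encodes the HOP2 subunit of a dimer that stimulates DMC1, had 1046 and 1066 counts in tod-PGCLCs and 234 to 667 in all other libraries. Its partner gene Mnd1 had 833 and 858 counts in tod-PGCLCs and 129 to 343 elsewhere. Psmc3ip was lower in SCLCs than in tc;Sf1ESCs (-1.06, SE 0.17, adjusted p = 0.000414, and -0.80 with no call without SCLC replicate 2) and higher in tod-PGCLCs than in SCLCs (1.85, SE 0.17, adjusted p = 1.53e-05). Exons of Psmc3ip overlap those of Mlx on the other strand. Mnd1 was called higher in tod-PGCLCs in all 3 comparisons, against SCLCs with 1.59 and with 2.23 without SCLC replicate 1. Its call in SCLCs against tc;Sf1ESCs (1.004) was lost when either tcESC or either tc;Sf1ESC library or SCLC replicate 1 (0.37) was left out, and with library totals, filterByExpr or only the 4 libraries compared.

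Among the crossover genes, Mlh3, whose product resolves crossovers and also acts in mismatch repair, was the most abundant in CPM and fell in both differentiated groups. It had 1643 to 2083 counts in the ESC libraries, 762 and 822 in SCLCs and 919 and 808 in tod-PGCLCs. Mlh3 was lower in SCLCs than in tc;Sf1ESCs (log2 fold change -1.36, SE 0.08, adjusted p = 6.02e-07) and in tod-PGCLCs than in tcESCs (-1.08, SE 0.08, adjusted p = 6.45e-06) and tc;Sf1ESCs (-1.33, SE 0.08, adjusted p = 1.80e-06). Msh5, of the MutS-gamma dimer that stabilises recombination intermediates, had 48 to 57 counts in the ESC libraries, 206 and 218 in SCLCs and 181 and 183 in tod-PGCLCs, and was called higher in SCLCs than in tc;Sf1ESCs and in tod-PGCLCs than in both ESC lines. Its partner Msh4 stayed between 14 and 69 counts and was called only in tod-PGCLCs against tc;Sf1ESCs (1.21, adjusted p = 0.0499), a call lost with filterByExpr or DESeq2 and when any library other than those of SCLCs was left out (adjusted p up to 0.231, and up to 0.490 over all alternatives). Tex11, an X-linked crossover regulator, had 191 and 262 counts in tcESCs, 30 and 43 in tc;Sf1ESCs, 174 and 210 in SCLCs and 264 and 236 in tod-PGCLCs. The tc;Sf1ESC libraries were the lowest (log2 fold change -2.54 against tcESCs, SE 0.20, adjusted p = 6.78e-05), and SCLCs and tod-PGCLCs were both called higher than tc;Sf1ESCs. The helicase gene Hfm1 followed the same pattern at 19 to 124 counts, but its rise in SCLCs (1.10) rested on SCLC replicate 1 (0.32 without it) and lost its call with only the 4 libraries compared and when any library other than SCLC replicate 2 was left out. Its drop in tc;Sf1ESCs lost its call without tc;Sf1ESC replicate 1 (-1.82), and its higher level in tod-PGCLCs than in SCLCs (1.31) had no call without SCLC replicate 2 (0.78) and was 2.10 without SCLC replicate 1.

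Of the other germ cell genes, Taf7l, an X-linked TFIID subunit gene with an E-box before its start, showed the widest drop between the ESC lines. It had 195 and 278 counts in tcESCs, 11 and 13 in tc;Sf1ESCs, 534 and 439 in SCLCs and 262 and 242 in tod-PGCLCs. The drop in tc;Sf1ESCs (log2 fold change -4.20, SE 0.25, adjusted p = 1.88e-05) was followed by a rise in SCLCs (5.33, SE 0.24, adjusted p = 2.01e-07), and tod-PGCLCs were higher than tc;Sf1ESCs as well (4.28, SE 0.25, adjusted p = 2.04e-06). Taf7l was lower in tod-PGCLCs than in SCLCs (-1.05, SE 0.17, adjusted p = 0.000565), a call lost with library totals or without SCLC replicate 1 (-0.84).

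Tex14, needed for the bridges between germ cells, was highest in tod-PGCLCs with 2407 and 2131 counts, against 365 to 915 elsewhere, and its SCLC libraries differed by 2.75-fold in CPM. It was called higher in tod-PGCLCs against all 3 other groups. The call against tcESCs (1.38) was lost without tcESC replicate 1 (adjusted p = 0.0539) or tcESC replicate 2 (0.0673), with adjusted p up to 0.220 over all alternatives, and the value against SCLCs was 1.71, with 2.60 without SCLC replicate 1. Tex15, which acts in the piRNA pathway of germ cells, had 3258 and 3744 counts in tcESCs, 1590 and 1699 in tc;Sf1ESCs, 1483 and 1570 in SCLCs and 1007 and 1068 in tod-PGCLCs, so that tcESCs stood above all other groups. It was lower in tod-PGCLCs than in tcESCs (-1.78, SE 0.07, adjusted p = 5.23e-07), and its call between the ESC lines lies at the fold limit (-1.01).

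The 5 members under the count limit were at 7 counts or fewer in each ESC library. Syce3, a central element gene, had 33 and 22 counts in tod-PGCLCs, 7 and 4 in SCLCs and 0 or 1 in each ESC library. Rnf212, a SUMO ligase gene of crossover designation, had 25 and 24 counts in tod-PGCLCs and 0 to 2 in each of the others. Ccnb3, a meiotic cyclin gene, had 18 and 25 counts in tod-PGCLCs, 6 and 6 in SCLCs, 1 and 0 in tcESCs and 0 in both tc;Sf1ESC libraries. On pooled counts the ratio of CPM between tod-PGCLCs and SCLCs was 25.2 for Rnf212 (95% exact interval 6.61 to 214, from 49 and 2 counts) and 5.14 for Syce3 (2.66 to 10.9). Ccnb3 was at least 7.12-fold higher in tod-PGCLCs than in tc;Sf1ESCs, computed against 3 counts per library. The cohesin kleisin gene Rad21l had 10 and 9 counts in tod-PGCLCs, 4 and 5 in SCLCs and 0 or 1 in each ESC library, with a ratio of 2.17 (0.935 to 5.44) against SCLCs. Mei1, a gene of break formation, stayed between 0 and 11 counts and overlapped between SCLCs and tod-PGCLCs (ratio 0.783, 0.382 to 1.57). When every gene with at least 1 count was fitted, all 5 were called higher in tod-PGCLCs than in tcESCs, 4 (not Mei1) than in tc;Sf1ESCs and 3 (Syce3, Rnf212 and Ccnb3) than in SCLCs, where 12.4%, 13.4% and 12.1% of the 30923 genes were called higher against tcESCs, tc;Sf1ESCs and SCLCs.

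Calls were counted for the motif genes, with members under the count limit counted as not called. The genes with a motif did not all move in 1 direction. Of all genes 24.2% rose and 18.0% fell in SCLCs, and in tod-PGCLCs 18.1%, 19.4% and 18.5% were higher and 11.2%, 13.3% and 19.5% lower than in tcESCs, tc;Sf1ESCs and SCLCs. Of the 7 members with CACGTG, 4 were called lower in tc;Sf1ESCs than in tcESCs (Sycp1, Sycp3, Stag3 and Taf7l) and none higher, against 4 lower and 1 higher of the 22 without it, where 5.85% and 6.13% of all genes were. From tc;Sf1ESCs to SCLCs 5 of the 7 rose and Hormad1 fell, against 9 and 3 of the 22 others. Between tod-PGCLCs and SCLCs none of the 7 was called higher and 2 were lower (Taf7l and Tex12), against 9 higher and 2 lower of the 22 others. Tex12, which holds CACGTG and GCGGGAA, is among those counted as rising in SCLCs and as lower in tod-PGCLCs than in SCLCs. It passed the count limit only through the SCLC libraries, so its calls lend no support to these counts. Of the 7 with CACGTG, Taf7l is the other that was lower. Stra8 and Rec8 held none of the 3 motifs in these windows. In tod-PGCLCs 1 of the 7 was higher and 1 lower than in tcESCs, against 9 and 1 of the 22, and 4 higher and 1 lower than in tc;Sf1ESCs, against 12 and 1. Of the 10 members with GCGGGAA, 5 were called higher in tod-PGCLCs than in tcESCs and 1 lower, against 5 and 1 of the 19 without it, and 5 higher and 1 lower than in tc;Sf1ESCs, against 11 and 1. Against SCLCs 3 of the 10 were higher and 2 lower, against 6 and 2 of the 19. In SCLCs 5 of the 10 rose and 2 fell, against 9 and 2 of the 19, and in tc;Sf1ESCs 0 were higher and 2 lower than in tcESCs, against 1 and 6. Of the 5 members with CNCCTCAG, 2 were higher and 0 lower in tod-PGCLCs than in tcESCs, against 8 and 2 of the 24 others, and 4 rose and 0 fell in SCLCs, against 10 and 4. Of the 5, 3 were higher and 0 lower in tod-PGCLCs than in tc;Sf1ESCs, against 13 and 2, and 1 was higher and 1 lower than in SCLCs, against 8 and 3. In tc;Sf1ESCs 0 were higher and 1 lower than in tcESCs, against 1 and 7.

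The SCLC libraries differed from each other in many members. Over the 28 members, the log2 ratio of replicate 1 to replicate 2 (CPM plus 0.5) had a median of 0.49 against 0.01 over the 16707 genes, and 6 members were over 2-fold higher in replicate 1 and none over 2-fold lower, where 1.75% and 1.35% of all genes were. By CPM without that offset 11 members were over 2-fold higher and none lower, against 6.00% and 3.75% of all genes. The markers differed between these libraries as well. The median ratio was 0.68 for 9 primordial germ cell markers, 0.79 for 8 ESC markers, 0.55 for 8 Sertoli cell markers and -0.89 for 9 endoderm markers. Dppa3, a germ cell and ESC gene, had 1301 and 440 counts, and the germ cell RNA-binding gene Dazl 1606 and 666. The 6 members over 2-fold higher with the offset were Stra8, Tex14, Hormad1, Mei4, Smc1b and Mnd1, from different steps of meiosis, while Prdm9 (0.909), Tex11 (0.910), Msh5 (1.04), Syce1 (1.08) and Rec8 (1.09) had ratios of CPM near 1. The summed pluripotency markers were at 857 and 603 CPM in SCLCs, against 5129 to 5896 CPM in the ESC libraries, and their part in the SCLC values of these members was not tested.

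**Figure D4:**
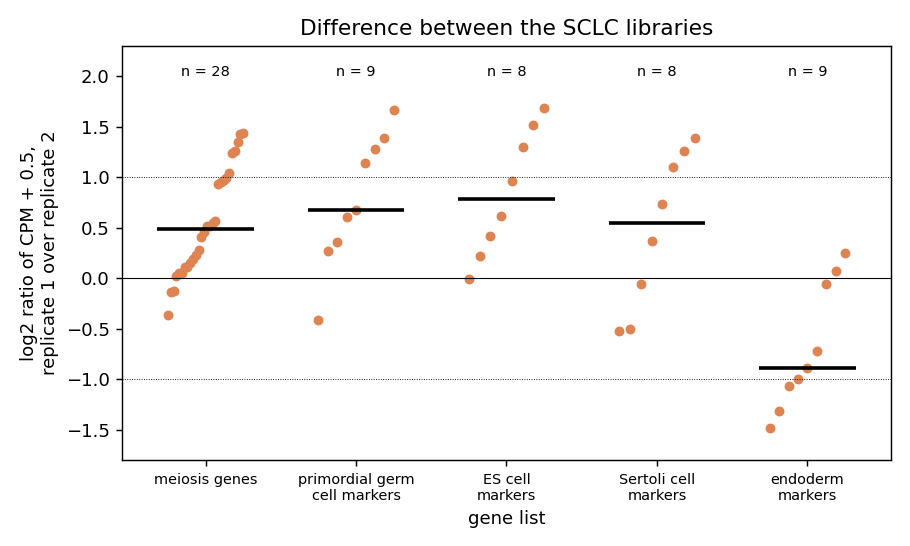
Log2 ratio of CPM plus 0.5 between SCLC replicate 1 and replicate 2 for each tested meiosis gene and for tested markers of 4 cell types. Each point is a gene, black bars are medians and dotted lines mark 2-fold. The medians of the meiosis genes (0.49) and of the germ cell, ESC and Sertoli markers lie above 0 and that of the endoderm markers below it (-0.89), with 25 of 28, 8 of 9, 7 of 8, 5 of 8 and 2 of 9 genes above 0.

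Lists of related genes that are not members were set beside them, and their counts are to be read against the shares of all genes given with the motifs. Of 15 tested regulators of meiotic entry and germ cell RNA-binding genes, 1 was higher and 6 lower in tc;Sf1ESCs than in tcESCs, led by Mael (-3.79), Ddx4 (-2.27) and Nanos3 (2.23). Of these 15, Aldh1a1 and Tex101 passed the count limit only through the SCLC libraries, so their calls lend no support to the counts, and each count without them follows in brackets. In SCLCs 7 rose (5 without them) and 3 fell (3), among them the retinoid genes Rarb (6.33) and Cyp26b1 (3.56). In tod-PGCLCs 8 (7) were higher and 0 lower than in tcESCs, led by Rarb (3.17), Dnd1 (3.04) and Dmrt1 (2.92), and 11 (9) higher and 1 (1) lower than in tc;Sf1ESCs, among them Mael (5.71) and Dmrt1 (4.42). Against SCLCs 8 (8) were higher and 3 (2) lower, among them Aldh1a2 (2.65) and Mael (2.60). As a description, Aldh1a1, a retinoic acid synthesis gene, had 75 and 160 counts in SCLCs, 5 and 5 in tod-PGCLCs, 1 and 0 in tcESCs and 0 in both tc;Sf1ESC libraries, which makes it at least 37.2-fold higher in SCLCs and at least 1.65-fold higher in tod-PGCLCs than in tc;Sf1ESCs, computed against 3 counts per library. Mael and Ddx4 therefore had their lowest levels in tc;Sf1ESCs, as Taf7l and Sycp3 did.

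Of 24 genes of PRC1.6, related repressors and the 5-methylcytosine oxidases Tet1 and Tet2, Tet2 (-1.77) alone was called between the ESC lines. The counts of this list are therefore not counts of repressors alone. In SCLCs 3 rose and 8 fell, led by Tet1 (-2.69), Uhrf1 (-2.47) and Wdr5 (-1.97). In tod-PGCLCs 2 were higher and 3 lower than in either ESC line, led by Dnmt3a (2.32), Wdr5 (-1.63) and Tet2 (-1.63) against tcESCs and by Dnmt3a (1.74), Yaf2 (1.71) and Wdr5 (-1.38) against tc;Sf1ESCs. Against SCLCs 4 were higher and 1 lower, led by Tet1 (2.55), Cbx1 (1.79) and Dnmt3b (1.55). Tet1, which oxidises 5-methylcytosine, thus had its lowest level in SCLCs, with 2717 and 1773 counts against 11927 to 20853 elsewhere.

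Of 33 tested genes of general recombination and mismatch repair, 0 were called between the ESC lines by edgeR or by DESeq2, where 14 had an unadjusted p under 0.05. In SCLCs 1 rose and 6 fell, among them Brca2 (-1.66) and Msh6 (-1.46). In tod-PGCLCs 9 were higher than in SCLCs and 0 lower, led by Rad51c (1.97), Rpa1 (1.74) and Msh6 (1.43). Against tcESCs 4 were higher and 2 lower, led by Rad51c (2.69), Nbn (1.77) and Brca2 (-1.32), and against tc;Sf1ESCs 3 were higher and 0 lower, namely Rad51c (2.05), Rad50 (1.81) and Nbn (1.18). Of 28 tested further meiosis-specific genes, 4 were higher and 5 lower in tc;Sf1ESCs than in tcESCs, led by Mov10l1 (-1.83), Zcwpw1 (-1.78) and Majin (1.74). In SCLCs 8 rose and 10 fell, led by Sycp2l (-5.56), Brdt (3.69) and Mov10l1 (3.59). In tod-PGCLCs 12 were higher than in each of the other 3 groups, and 3, 5 and 1 lower than in tcESCs, tc;Sf1ESCs and SCLCs. They were led by Meiob (94 and 52 counts against 1 and 0), Ccnb1ip1 (4.84) and Brdt (3.09) against tcESCs, by Ccnb1ip1 (4.69), Brdt (4.65) and Mov10l1 (4.36) against tc;Sf1ESCs, and by Ccnb1ip1 (4.10), Terb2 (3.26) and Sycp2l (2.88) against SCLCs. Ccnb1ip1, a crossover factor gene, had 783 and 726 counts in tod-PGCLCs and 19 to 44 elsewhere.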

How the data were processed

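RNA with poly-A was sequenced as strand-specific paired reads in 8 libraries of 4 groups. The authors trimmed the reads with Trim Galore, aligned them to GRCm38 with STAR 2.4.0 and deposited raw read counts per Ensembl gene. Tools and builds are as in the submitters' processing notes, which also name HTSeq, Picard and DESeq2. Whether the counting used the strand is not given in the sources used here. Reads set aside by the counting (35.6% to 41.6% of each library, with 20.5% to 27.5% of each library not aligned uniquely) are in no total, so genes with near copies can be undercounted. GENCODE M21 named 45143 gene IDs and left 935 unnamed.

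Counts were analysed in R 4.3.3. Genes with a mean count above 10 were fitted over all 8 libraries with edgeR 4.0.16 (TMM factors, quasi-likelihood test, Benjamini-Hochberg), and calls needed a fold change above 2 and an adjusted p under 0.05. The code was tested on simulated data. CPM use library totals, TPM use merged exon lengths, and intervals are exact binomial. The members and lists were chosen with earlier results of these data known. Members named with full statistics are the 5 largest called changes in each direction of a comparison among those whose libraries do not overlap, and Stra8, Rec8, Sycp3, Sycp1, Spo11, Dmc1 and Prdm9. From each list the 3 largest called changes are named, except 1 that is not reported here. Gm4969, Rarb, Tet1, Dppa3, Dazl and Ccnb1ip1 were singled out after their values were seen. Alternatives were RLE factors, library totals, filterByExpr, every gene with at least 1 count, DESeq2 1.42.0, only the 4 libraries compared, a replicate block, an adjusted p under 0.01, glmTreat and each library left out, and for the summed level TPM and the sum without the highest member.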

Additional observations from a re-analysis of the deposited data

How the results depend on the processing

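Of 92 values of named members over 9 settings and 8 fits with 1 library left out, 77 were called, and 52 of these kept their call and direction under every one. No called value changed direction. The number of members called fell from 11 to 6 for tc;Sf1ESCs against tcESCs and from 14 to 8 for tod-PGCLCs against SCLCs with glmTreat, which tests against a 2-fold change, and all other settings left each count within 1.5 times. With 1 library left out the counts were 9 to 13 for tc;Sf1ESCs against tcESCs, 17 to 18 for SCLCs against tc;Sf1ESCs, 12 to 14 and 18 to 21 for tod-PGCLCs against tcESCs and tc;Sf1ESCs, and 11 to 16 against SCLCs. Values that changed sign were uncalled: Prdm9 between the ESC lines (0.349 without tcESC replicate 1, -0.439 without tcESC replicate 2 and 0.130 without tc;Sf1ESC replicate 2), Dmc1 in SCLCs (0.134 without SCLC replicate 2 and -0.875 without SCLC replicate 1) and Rec8 in tod-PGCLCs against tc;Sf1ESCs (-0.038 without tod-PGCLC replicate 2 and 0.434 without tod-PGCLC replicate 1).

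Same-numbered libraries did not deviate together (correlations over genes from -0.026 to 0.062), and with the replicate number as a block 11, 18, 14, 19 and 14 members were called in the order of the comparisons above. Of the named calls it removed that of Mnd1 in SCLCs and that of Msh4 in tod-PGCLCs against tc;Sf1ESCs. Library totals in place of TMM factors moved the median of all genes in tod-PGCLCs to 0.107, 0.10 and 0.146 against tcESCs, tc;Sf1ESCs and SCLCs.

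The summed level in tcESCs, tc;Sf1ESCs, SCLCs and tod-PGCLCs was 561, 448, 608 and 972 on the TPM scale in place of 581, 431, 476 and 764 CPM, where the SCLC libraries (739 and 476) lie on either side of the tcESC mean. The causes of these changes were not tested. Without Tex15, the highest member in CPM in tcESCs but in no other group, it was 456, 370, 421 and 725 CPM. Leaving out 1 library, a check chosen after the data were seen, gave 577 to 586, 429 to 433, 390 to 561 and 743 to 785 CPM. At 3 counts per library about 0.1 CPM is the limit, and no difference below it is detectable.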
